A study of Mus musculus with 10 samples.

Results

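The 9 genes described here encode surface proteins by which blood stem cells find, hold and leave their place in the marrow. They are the chemokine receptor gene Cxcr4, the sphingosine-1-phosphate receptor gene S1pr1, the integrin chain genes Itga4, Itga6, Itgb1, Itgal and Itgb2, the selectin ligand gene Selplg and the hyaluronan receptor gene Cd44. They were chosen by symbol for this role, by a rule that uses no measured value, and are 9 of the 52096 genes measured. All 9 passed the filter on low values that left 13041 genes for testing (1 FPKM or more in 5 or more of the 10 libraries, where FPKM is a fragment count scaled for transcript length and for the mapped fragments of the library). RNA was sequenced from 10 libraries of mouse bone marrow cells that the labels call hematopoietic stem cells (HSCs), sorted as CD48-, CD150+ cells among lineage-negative, Sca-1+, Kit+ marrow cells. The first 5 libraries, FL 1 to FL 5, came from Nup214fl/+ mice, which carry 1 floxed allele of the nucleoporin gene Nup214 and no Cre. The other 5, HET 1 to HET 5, came from Nup214fl/+ mice that also carry Tie2-Cre, in which the promoter of the Tie2 gene drives Cre in endothelial and blood cells. Both groups carry the floxed allele, and no group carries Cre alone, so effects of Cre and of losing 1 Nup214 allele cannot be told apart. The sources used here do not give the age of the mice, nor whether the 5 libraries of a group are 5 animals. Errors and p-values therefore reflect library-to-library spread, which may be technical. In such samples fewer cells of a type and less RNA per cell cannot be told apart.

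Stem cells in marrow sense the chemokine CXCL12, made by stromal cells, through CXCR4, and this signal keeps them in the niche and guides them back to it after transplantation. Integrins are pairs of an alpha and a beta chain: alpha4 beta1 (VLA-4) binds VCAM-1 and fibronectin, alpha6 beta1 binds laminins, and alphaL beta2 (LFA-1) binds ICAM-1. PSGL-1, the product of Selplg, and CD44 carry the sugars that let cells roll on selectins, and S1PR1 senses the lipid gradient that draws cells out of tissue into blood.

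Of the 10 libraries, 2 did not lie with their own label. On the first principal component of the tested genes, which held 42.6% of the variance, FL 1 to FL 4 and HET 1 scored from 19.6 to 46.4, and FL 5 and HET 2 to HET 5 from -41.2 to -28.5. Nup214, the targeted gene, held from 30.0 to 65.8 FPKM in FL and from 9.13 to 31.2 in HET (exact two-sided permutation p = 0.0159 over all assignments of the libraries), with FL 5 at 30.0 and HET 1 at 31.2 between the others. The sources used here do not say which exons are floxed, so this value can include reads from outside it. The median tested gene also moved between libraries, from 0.30 above its mean on the log2(FPKM + 1) scale in HET 1 to 0.24 below it in HET 4, and its difference between HET and FL was -0.17. Results for the 9 genes are therefore given also without FL 5 and HET 1, and with the columns rescaled to a common median ratio, which moved that difference to 0.005. Those libraries were chosen for their place on a component of the same genes, so leaving them out favours separated groups, and every difference, overlap and adjusted p without them is conditional on that choice. Of the sort markers, Slamf1 (CD150) had a mean of 3.81 ± 1.06 FPKM over the FL libraries and 3.97 ± 1.02 over the HET libraries (SD, n = 5). Cd48, whose protein the sort selected against, was higher than Slamf1, at 85.1 ± 11.2 and 84.7 ± 22.6 FPKM. Kit held 144.9 ± 24.2 FPKM in FL and 153.9 ± 35.8 in HET. Ly6a (Sca-1) was less even, at 56.5 ± 10.9 FPKM in FL and 95.8 ± 54.7 in HET. Its HET libraries ran from 45.9 to 179 FPKM and overlapped FL.

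No gene among the 9 passed in the full set of libraries. HET was compared with FL by limma on log2(FPKM + 1) with Benjamini-Hochberg adjustment at 0.05 over all 13041 tested genes, and 0 of 9 members passed, beside 0 of all genes, a background of 0%. At an unadjusted limma p under 0.05 the higher side held 1 of the 9, Selplg, where the background was 1.44% of tested genes, and the lower side held 0 of the 9, where it was 8.95%. The groups overlapped for all 9, where 0.506% of tested genes did not overlap. The median log2 fold change of the 9 was -0.06, with 3 above 0 and 6 below, beside -0.17 for all tested genes. Without FL 5 and HET 1, 4 of the 9 passed, beside 45.7% of all tested genes: Itga4, Cd44 and S1pr1 lower and Selplg higher in HET. In that setting 42.2% of tested genes passed as lower and 3.44% as higher, so 3 of 9 lower is near the background. With the columns rescaled as well, 25.6% of tested genes passed, 12.3% as higher and 13.4% as lower, and of the 9 there were 2 higher, Selplg and Itgb1, and 0 lower. Quality weights were estimated from how far each library departs from its own group over the same genes, and gave FL 5 a weight of 0.236 and HET 1 one of 0.149. This is close to leaving those libraries out, so its calls are conditional in the same way and are no separate evidence. With the weights Itga4, Cd44 and S1pr1 were called lower, where the background was 47.8%, and Selplg higher, where it was 4.87% (52.7% in either direction). Without FL 5 alone, Selplg was the 1 member called, where 3.14% of tested genes passed, 0.230% as higher and 2.91% as lower. FL 5 held the highest Selplg value of all libraries, so this call is conditional on leaving it out.

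**Figure D1:**
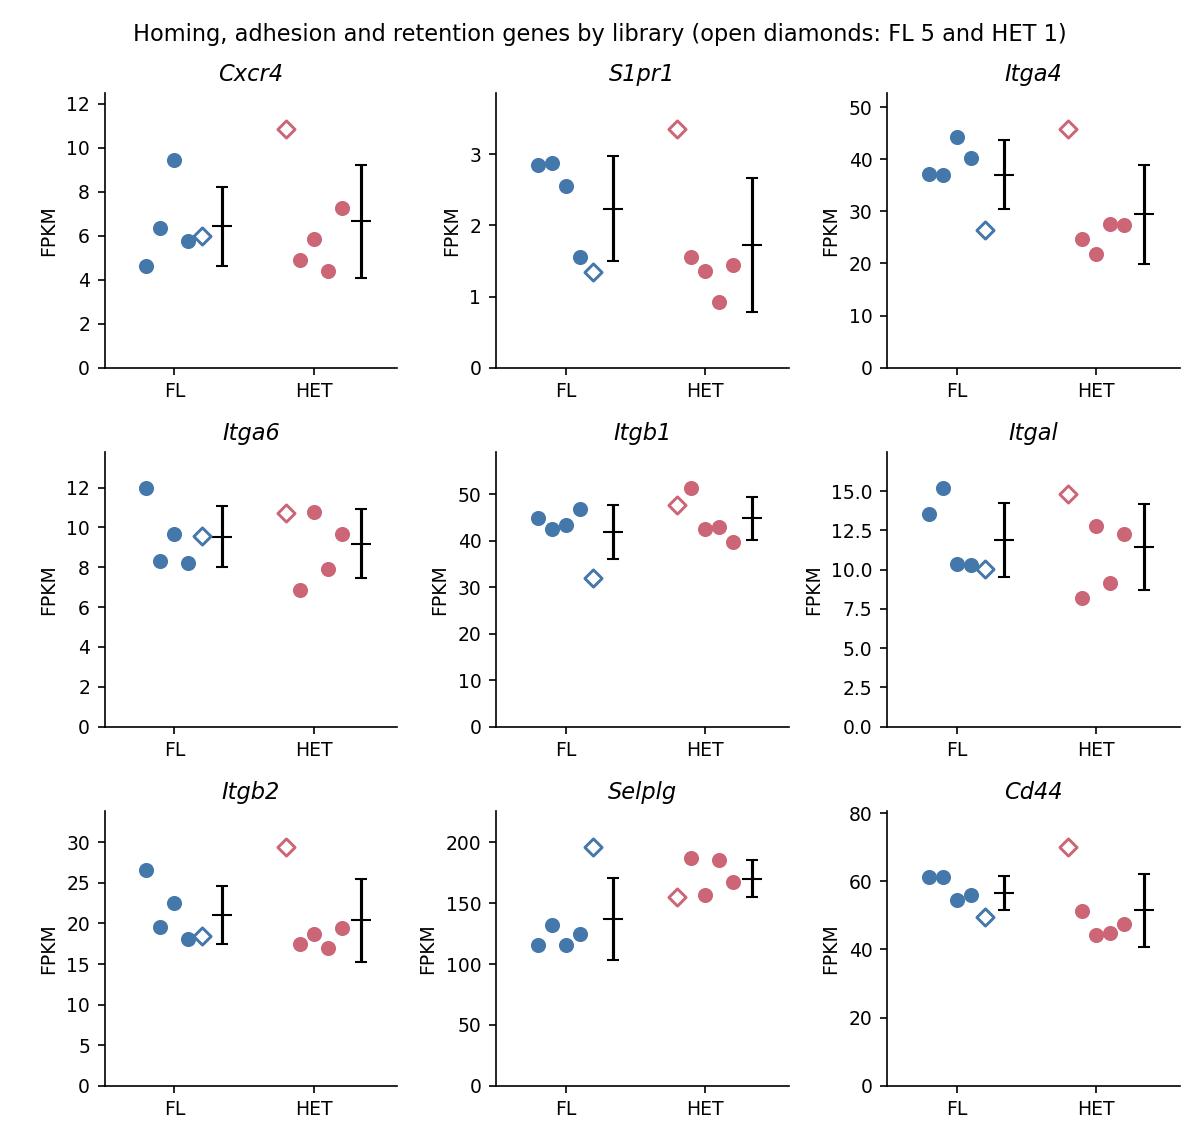
FPKM of each of the 9 genes in the 5 FL and 5 HET libraries, with the group mean and SD as a black bar beside the points. Open diamonds mark FL 5 and HET 1. HET 1 is the highest HET library for 6 of the 9 genes, and FL 5 the lowest FL library for 5 of them.

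By level, which FPKM gives per length of transcript, the 9 genes spanned from Selplg at 153.6 FPKM over the 10 libraries to S1pr1 at 1.98. Selplg was followed by Cd44 at 54.0, Itgb1 at 43.3, Itga4 at 33.2, Itgb2 at 20.7, Itgal at 11.7, Itga6 at 9.36 and Cxcr4 at 6.54 FPKM. Selplg lay above 94.9% of tested genes, Itgb1 above 82.4%, Cxcr4 above 38.6% and S1pr1 above 12.8%. Within libraries this order held in all 10 for Selplg over Cd44, Itga4 over Itgb2, Itgb2 over Itgal, Itgal over Itga6 and Cxcr4 over S1pr1. The steps from Cd44 to Itgb1, from Itgb1 to Itga4 and from Itga6 to Cxcr4 each held in 9 of 10 libraries. The ranges of the genes overlapped in these 3 pairs, and also for Itga4 over Itgb2 and for Itgal over Itga6. The steadiest was Itgb1, with a coefficient of variation of 11.9% over the 10 libraries, and the most variable was S1pr1 with 42.4%.

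Cxcr4, the receptor for CXCL12 (ENSMUSG00000045382, chromosome 1 from 128588199 to 128592293 on the minus strand in GRCm38), was low and did not separate the groups. FL 1 to FL 5 held 4.64, 6.34, 9.43, 5.75 and 5.97 FPKM, and HET 1 to HET 5 held 10.9, 4.91, 5.86, 4.42 and 7.27. The highest library of each group, FL 3 and HET 1, stood above the rest, and 2 of 5 HET libraries lay above the FL median. HET differed from FL by a log2 fold change of 0.02 (95% interval -0.49 to 0.53; limma adjusted p = 0.976), an interval that holds a fold from 0.711 to 1.44. Its sign turned without FL 5 and HET 1, at -0.17, and it was 0.18 with median-ratio scaling, with no call in any of 22 alternatives.

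S1pr1 (ENSMUSG00000045092, chromosome 3 from 115710433 to 115715072, minus strand), the receptor that draws cells toward blood, was the lowest of the 9. It held 2.85, 2.88, 2.55, 1.55 and 1.34 FPKM in FL 1 to FL 5, and 3.35, 1.55, 1.36, 0.92 and 1.44 in HET 1 to HET 5. FL 1 to FL 3 and HET 1 lay at 2.55 FPKM or above, and the other 6 libraries at or below 1.55, so that FL 4, FL 5 and HET 2 to HET 5 ran together. Over all libraries its log2 fold change was -0.27 (95% interval -0.80 to 0.25; limma adjusted p = 0.584) on a scale that understates changes of so low a gene. It fell by 0.57 without FL 5 and HET 1 (limma adjusted p = 0.0254), and by 0.31 when those libraries were left out and the columns rescaled, which did not pass (adjusted p = 0.162). With median-ratio scaling of all 10 libraries it was -0.15 (adjusted p = 0.670).

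Itga4, the alpha4 chain (ENSMUSG00000027009, chromosome 2 from 79255426 to 79333123, plus strand), followed the division of the libraries closely. FL 1 to FL 5 held 37.1, 37.0, 44.2, 40.3 and 26.4 FPKM, with a mean of 37.0 ± 6.62 (SD, n = 5). HET 1 to HET 5 held 45.7, 24.6, 21.8, 27.6 and 27.3 FPKM, with a mean of 29.4 ± 9.43. HET 1 was the highest of all 10 libraries and FL 5 lay among HET 2 to HET 5, while the other 4 FL libraries lay above the other 4 HET libraries without overlap. The log2 fold change was -0.35 (95% interval -0.78 to 0.08; limma adjusted p = 0.482) in the full set and -0.63 without FL 5 and HET 1 (SE 0.10, adjusted p = 0.00103). With those libraries left out and the columns rescaled it was -0.25 and did not pass (adjusted p = 0.204). With median-ratio scaling of all 10 libraries it was -0.16 (adjusted p = 0.572). Its sign was below 0 in all 22 alternatives.

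The beta1 chain gene Itgb1 (ENSMUSG00000025809, chromosome 8 from 128685654 to 128733200, plus strand), which pairs with both alpha4 and alpha6, did not follow Itga4. It held 44.8, 42.5, 43.3, 46.8 and 31.96 FPKM across FL 1 to FL 5, then 47.7, 51.3, 42.4, 43.0 and 39.7 across HET 1 to HET 5. Apart from FL 5, the lowest, the libraries of both groups lay between 39.7 and 51.3 FPKM. Its log2 fold change was 0.10 (95% interval -0.17 to 0.38; limma adjusted p = 0.686), -0.01 without FL 5 and HET 1 and 0.30 with median-ratio scaling (adjusted p = 0.354). Left out and rescaled together, it was 0.37 and passed (adjusted p = 0.0419), where 12.3% of tested genes passed as higher.

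The alpha6 chain gene Itga6 (ENSMUSG00000027111, chromosome 2 from 71745616 to 71858416, plus strand) held 12.0, 8.32, 9.66, 8.22 and 9.56 FPKM in FL 1 to FL 5 and 10.7, 6.86, 10.8, 7.90 and 9.68 in HET 1 to HET 5. The groups overlapped over most of their range, and 3 of 5 HET libraries lay above the FL median. The log2 fold change was -0.06 (95% interval -0.41 to 0.30; limma adjusted p = 0.863), -0.11 without FL 5 and HET 1 (adjusted p = 0.579), and turned to 0.12 with median-ratio scaling.

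The ratio of the alpha4 to the beta1 transcript within a library is not changed by rescaling the columns. It was 0.829, 0.871, 1.02, 0.862 and 0.826 in FL 1 to FL 5, and 0.960, 0.480, 0.513, 0.642 and 0.689 in HET 1 to HET 5. Here FL 5 lay with the other FL libraries, at their lower end, HET 2 to HET 5 lay below all 5 FL libraries, and HET 1 lay above the FL median. The mean log2 ratio, of FPKM + 1, was -0.18 ± 0.12 in FL and -0.63 ± 0.38 in HET (SD, n = 5), a difference of -0.45 with an exact two-sided permutation p of 0.0397 over all assignments. Adjusted over the 3 ratios computed, p was 0.119 and did not pass, and leaving out single libraries gave an exact p from 0.00794 without HET 1, the smallest p that set allows, to 0.0952 without FL 3, with p above 0.05 in the 9 sets that kept HET 1. Without FL 5 and HET 1 the difference was -0.62 (exact p = 0.0286, the smallest that 4 against 4 allows).

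The alpha6 to beta1 ratio ran from 0.176 to 0.299 in FL and from 0.134 to 0.254 in HET, with a difference in mean log2 ratio of -0.16 (exact permutation p = 0.468, adjusted over the 3 ratios 0.702). The alphaL to beta2 ratio ran from 0.458 to 0.777 in FL and from 0.472 to 0.684 in HET, with a difference of -0.002 (exact permutation p = 0.984, adjusted 0.984). Both sets of ranges overlapped over most of their length. Transcript ratios do not give the amounts of the assembled receptors at the surface.

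**Figure D2:**
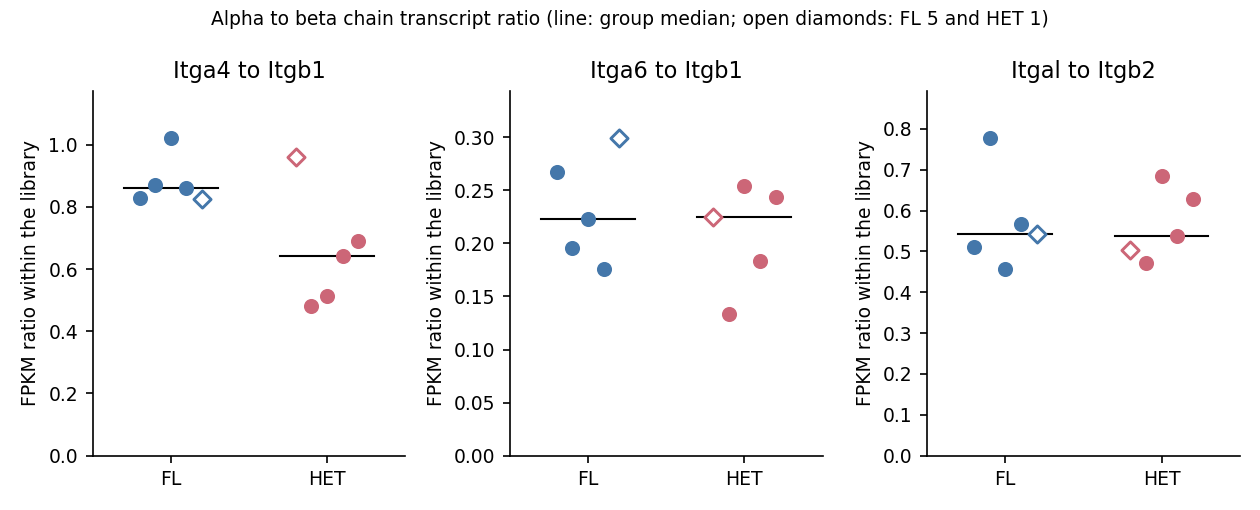
Ratio of alpha to beta chain FPKM within each library, for the 3 integrin pairs, with the group median as a line and FL 5 and HET 1 as open diamonds. For alpha4 to beta1, HET 2 to HET 5 lie between 0.480 and 0.689, below the FL range of 0.826 to 1.02, and HET 1 lies within it at 0.960.

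The chains of LFA-1 differed less between groups than within them. Itgal, the alphaL chain (ENSMUSG00000030830, chromosome 7 from 127296260 to 127335138, plus strand), held 13.6, 15.2, 10.3, 10.3 and 10.02 FPKM across FL 1 to FL 5, then 14.8, 8.21, 12.8, 9.16 and 12.2 across HET 1 to HET 5. Itgb2, the beta2 chain shared by the leukocyte integrins (ENSMUSG00000000290, chromosome 10 from 77530252 to 77565708, plus strand), held 26.6, 19.5, 22.6, 18.1 and 18.5 across FL 1 to FL 5, then 29.4, 17.4, 18.7, 17.0 and 19.5 across HET 1 to HET 5. HET 1 was the highest HET library for both genes and the highest of all 10 for Itgb2. Their log2 fold changes were -0.06 for Itgal (95% interval -0.46 to 0.34; limma adjusted p = 0.877) and -0.06 for Itgb2 (-0.43 to 0.31; adjusted p = 0.869). They were, without FL 5 and HET 1, -0.20 (adjusted p = 0.330) and -0.23 (0.135). With median-ratio scaling both lay above 0, at 0.12 and 0.13, and neither passed in any of 22 alternatives.

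Selplg, which encodes PSGL-1 (ENSMUSG00000048163, chromosome 5 from 113818536 to 113832644, minus strand), went the other way from most genes. FL 1 to FL 5 held 116, 132, 116, 125 and 196 FPKM, with a mean of 137 ± 33.7 (SD, n = 5). HET 1 to HET 5 held 155, 187, 156, 186 and 168 FPKM, with a mean of 170.3 ± 15.5. All 5 HET libraries lay above FL 1 to FL 4, and FL 5 was the highest of all 10. HET exceeded FL by a log2 fold change of 0.34 (95% interval 0.02 to 0.66; limma adjusted p = 0.472), or 0.54 with median-ratio scaling (adjusted p = 0.376). Without FL 5 alone it was 0.47 and passed (limma adjusted p = 0.0387), where 0.230% of tested genes passed as higher. Without FL 5 and HET 1 it was 0.51 (adjusted p = 0.00256), and 0.90 with rescaled columns as well (adjusted p = 0.00111), where 12.3% of tested genes passed as higher.

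Selplg is also expressed by mature leukocytes, whose markers were higher in HET for neutrophils. All 9 neutrophil markers had a higher mean in HET, their summed level ran from 106.4 to 303 FPKM in FL and from 204 to 760.1 in HET, and none was at 0 in all libraries. By library the neutrophil sum was 195, 106.4, 217, 189.5 and 303 FPKM in FL 1 to FL 5 and 671, 374, 204, 557 and 760.1 across HET 1 to HET 5. The highest sum was in FL 5 among FL libraries and in HET 5 among HET libraries. Selplg was highest in FL 5 among FL libraries and in HET 2 among HET libraries. The B and plasma cell sum, mostly immunoglobulin transcripts, ran from 2620 to 10911 FPKM in FL and from 8066 to 101921 in HET. Without Ighm and Igkc it ran from 104 to 780 FPKM in FL and from 135 to 1022 in HET. By their means 6 of 8 of these markers were higher in HET. Other leukocyte lists did not rise: all 9 macrophage markers had a lower mean in HET. Of 9 T and NK cell markers, 4 were higher and 5 lower. The part of these cells in the Selplg values was not tested.

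Cd44, which encodes a hyaluronan receptor (ENSMUSG00000005087, chromosome 2 from 102811141 to 102901665, minus strand), held 61.4, 61.2, 54.5, 55.9 and 49.5 FPKM in FL 1 to FL 5 and 70.0, 51.2, 44.2, 44.7 and 47.6 in HET 1 to HET 5. As for Itga4, HET 1 was the highest of all libraries, FL 5 the lowest of FL, and the other 4 FL libraries lay above the other 4 HET libraries. The log2 fold change was -0.15 (95% interval -0.44 to 0.15; limma adjusted p = 0.601). It was -0.31 without FL 5 and HET 1 (adjusted p = 0.0165), beside -0.33 for the median of all tested genes there. With median-ratio scaling it was 0.05, and 0.08 with both (adjusted p = 0.568). Without FL 5 and HET 1, a choice that itself favours separation, the groups did not overlap downward for 2 of the 9, Itga4 and Cd44, where the background was 38.9% of tested genes, and upward for 1, Selplg, where it was 2.99%.

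**Figure D3:**
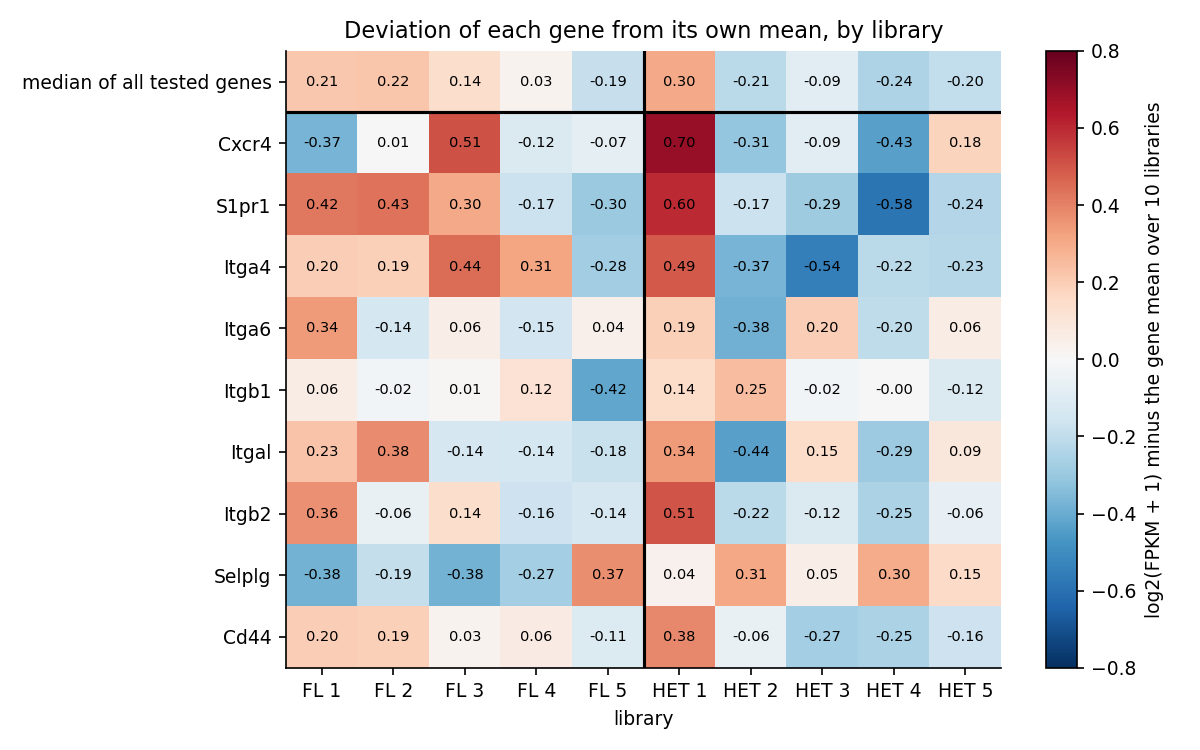
Deviation of log2(FPKM + 1) from the mean of the gene over the 10 libraries, for the median of all tested genes (top row) and the 9 genes, with FL libraries left and HET libraries right of the line. Itga4, Cd44 and S1pr1 are high in HET 1 and low in FL 5 like the median gene, Selplg is at 0.37 in FL 5, and Itgb1 is within 0.25 of its mean in all libraries but FL 5.

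**Figure D4:**
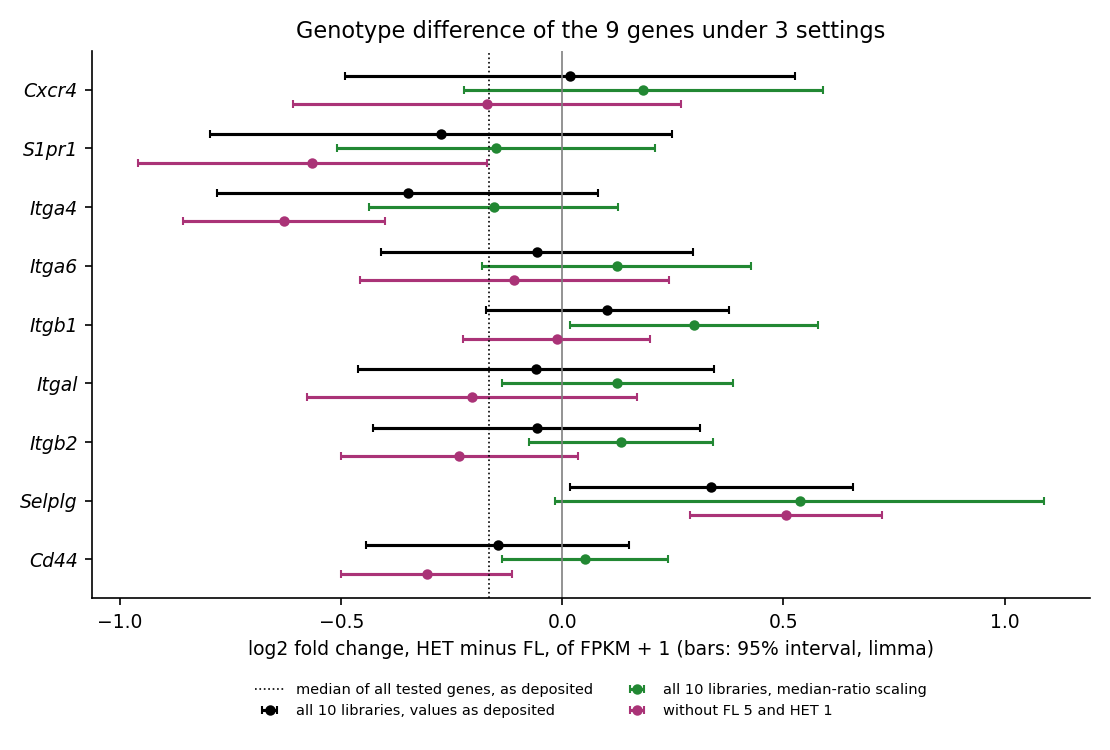
log2 fold change of FPKM + 1, HET minus FL, with 95% intervals from limma, for the full set as deposited (black), with median-ratio scaling (green) and without FL 5 and HET 1 (purple). The dotted line is the median of all tested genes, -0.17. Selplg lies above 0 in all 3 settings and Itga4 and S1pr1 below 0, while Cd44, Itga6, Itgal and Itgb2 change sign with scaling.

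Upstream sequences are shown for Itga4, Cd44, Itgb1 and Cxcr4, the 4 of the 9 genes that matched the reference set of upstream sequences by symbol. These genes were not chosen by their levels. The sequences are the 250 bases before the RefSeq start of each gene in GRCm38.p6, 5′ to 3′ on the strand of the gene. Capitals mark matches, on either strand, to 6 motifs: the GC box GGGCGG, the CCAAT box CCAAT, the TATA box TATAAA, an ETS motif CCGGAAG, the E-box CACGTG and the palindromic NRF1 motif. The windows are chr2:79255176-79255425 (plus strand) for Itga4, chr2:102901666-102901915 (minus) for Cd44, chr8:128685404-128685653 (plus) for Itgb1 and chr1:128592300-128592549 (minus) for Cxcr4.
Itga4: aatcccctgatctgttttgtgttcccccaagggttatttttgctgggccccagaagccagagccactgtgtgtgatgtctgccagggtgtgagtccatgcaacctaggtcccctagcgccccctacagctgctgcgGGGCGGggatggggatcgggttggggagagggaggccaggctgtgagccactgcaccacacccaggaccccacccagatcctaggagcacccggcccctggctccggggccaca
Cd44: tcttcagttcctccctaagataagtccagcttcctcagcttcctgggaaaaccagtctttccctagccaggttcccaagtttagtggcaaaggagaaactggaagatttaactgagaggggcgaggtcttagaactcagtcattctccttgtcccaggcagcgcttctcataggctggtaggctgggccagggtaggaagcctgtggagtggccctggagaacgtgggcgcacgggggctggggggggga
Itgb1: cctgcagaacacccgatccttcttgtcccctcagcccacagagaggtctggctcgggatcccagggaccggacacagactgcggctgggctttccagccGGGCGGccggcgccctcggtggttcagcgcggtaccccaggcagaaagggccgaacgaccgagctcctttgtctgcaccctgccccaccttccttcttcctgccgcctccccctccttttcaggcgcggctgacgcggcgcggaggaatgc
Cxcr4: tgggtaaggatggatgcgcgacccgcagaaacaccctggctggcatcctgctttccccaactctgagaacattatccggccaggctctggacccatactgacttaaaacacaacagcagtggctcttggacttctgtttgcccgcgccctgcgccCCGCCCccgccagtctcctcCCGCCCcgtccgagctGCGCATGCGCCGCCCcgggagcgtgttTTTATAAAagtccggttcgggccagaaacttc
The Itga4 and Itgb1 windows each held 1 GC box, the Cd44 window none of the 6 motifs, and the Cxcr4 window 3 GC boxes, 2 overlapping TATA box matches and 1 NRF1 motif, which overlaps a GC box. Of all 32851 windows in the reference set, 32.7% held a GC box, 12.4% a TATA box and 0.782% the NRF1 motif. The CCAAT box, ETS motif and E-box, present in 33.9%, 6.91% and 6.02% of windows, were in none of the 4. The share of G and C was 64.0% for Itga4, 56.4% for Cd44, 68.0% for Itgb1 and 61.2% for Cxcr4, against a median of 52.4%. A match is only a description of the letters.

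The genes around the 9 were read from 8 lists of their pathways, and no listed gene passed in the full set. Among 8 tested integrins outside the 9, of 21 listed, all 8 had a fitted value below 0 (median -0.31, beside -0.17 for all genes), but with median-ratio scaling the split was 6 below and 2 above. Itgad, an alpha chain of beta2 integrins, held 5.42 ± 1.76 FPKM in FL and 3.28 ± 2.51 in HET, and Itgb5 1.82 ± 1.25 and 0.998 ± 0.589. Without FL 5 and HET 1, 4 of the 8 passed as lower and 0 as higher, near the background of 42.2% for lower genes. The list holds Itga2b, a platelet integrin chain that is also a megakaryocyte marker. All 6 megakaryocyte markers had a lower mean in HET, with sums of 1817 to 2408 FPKM in FL and 983 to 1792 in HET. Most of each sum was the single gene Pf4, whose mean was 1757 FPKM over the FL libraries against 1110 over the HET libraries. The groups were apart for Pf4 but overlapped for each of the other markers. A lower value in HET was also common, with the median of all genes at -0.17. The part of megakaryocytes in the integrin values was not tested.

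Among genes that activate integrins or link them to actin, 17 of 22 were tested, with a median of -0.29 and 13 below 0. Rap1b, the small GTPase that turns integrins on, held 63.5 ± 12.2 FPKM in FL and 43.7 ± 10.3 in HET, with a log2 fold change of -0.54 (SE 0.17, limma adjusted p = 0.472). Tln1, the talin that binds the beta tail, held 78.7 ± 8.14 and 64.2 ± 7.32 (-0.29, SE 0.11, adjusted p = 0.472). Both passed without FL 5 and HET 1, at -0.71 (adjusted p = 0.00271) and -0.38 (0.0115), and neither did once the columns were rescaled as well, at -0.33 (0.0765) and 0.003 (0.990). In the setting without those libraries 10 of 17 passed as lower and 1 as higher, where 42.2% and 3.44% of all tested genes did.

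In the CXCR4 pathway, the 2 tested genes of smallest p, Gnai2 and Arrb2, fell into a high and a low set of libraries. The related genes Gnai3 and Arrb1 did not. Gnai3 held 54.8 ± 4.02 FPKM in FL and 58.3 ± 6.87 in HET, and Arrb1 9.18 ± 1.06 and 8.60 ± 0.474. Gnai2, the inhibitory G protein alpha chain that couples to CXCR4, held 200.5, 207, 127, 125 and 34.2 FPKM in FL 1 to FL 5 and 124.0, 32.1, 35.4, 29.6 and 32.8 in HET 1 to HET 5. Arrb2, an arrestin that quenches such receptors, held 38.0, 30.6, 34.3, 24.6 and 5.99 FPKM across FL 1 to FL 5, then 28.6, 7.11, 6.10, 5.84 and 6.39 across HET 1 to HET 5. For both, FL 1 to FL 4 and HET 1 were several times higher than FL 5 and HET 2 to HET 5, with nothing between. In the full set their log2 fold changes were -1.45 (SE 0.56) and -1.30 (SE 0.54), each with limma adjusted p = 0.472. Without FL 5 and HET 1 both passed, at -2.27 (adjusted p = 1.27e-05) and -2.15 (3.41e-06), and also with rescaled columns, at -1.89 and -1.78. Of this list 20 of 21 genes were tested, with a median of -0.10, 12 below 0 and 8 above, a split that became 8 below and 12 above with median-ratio scaling. The scavenging receptor gene Ackr3 was not tested, at 0.224 ± 0.309 and 0.134 ± 0.105 FPKM.

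Selectins and the enzymes that build selectin ligands had 16 of 18 genes tested, a median of -0.16 and 12 below 0. Spn, which encodes the sialomucin CD43, held 47.6, 45.8, 47.4, 42.9 and 15.1 FPKM in FL 1 to FL 5 and 45.8, 15.3, 14.6, 14.5 and 15.8 in HET 1 to HET 5. It thus took a high level in the same 5 libraries as Gnai2 and Arrb2 and a low level in the other 5, whatever the label. Its log2 fold change was -0.93 (SE 0.38, limma adjusted p = 0.472), and -1.55 without FL 5 and HET 1 (adjusted p = 1.37e-06). Glg1, a Golgi protein that also serves as an E-selectin ligand, held 9.86 ± 2.64 and 7.17 ± 0.634 FPKM. Selplg, from the same process, was the member that moved opposite to Spn.

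Of the S1P pathway 11 of 13 genes were tested, with a median of -0.07. Sgpp1, a phosphatase that breaks down S1P, held 6.51 ± 0.981 FPKM in FL and 4.79 ± 0.986 in HET (-0.38, SE 0.16, limma adjusted p = 0.472). Cd69, whose product pulls S1PR1 from the surface, held 37.8 ± 9.74 and 26.7 ± 14.9 (-0.61, SE 0.33, adjusted p = 0.476). S1pr4, named after its values were seen, was the most abundant receptor of this family, at 40.8 ± 4.10 and 40.3 ± 11.0 FPKM, against 2.23 ± 0.736 and 1.72 ± 0.940 for S1pr1. Other adhesion and motility genes, 23 of 27 tested, had a median of -0.11. Among them Rac1, a GTPase of cell movement, held 121 ± 10.3 and 155.7 ± 40.0 (0.32, SE 0.18, adjusted p = 0.486), and Cd63 239 ± 38.0 and 202 ± 39.7. Rac1 was lowest of all 10 libraries in HET 1, at 89.7, and passed upward without FL 5 and HET 1 (0.52, adjusted p = 0.00361).

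Of 17 ligands and other factors of the niche, 8 were tested. Angpt1, which binds the TIE2 receptor, and Icam2, another ligand of LFA-1, were singled out once their values were known. Angpt1 was at 70.3 ± 5.08 FPKM in FL against 71.4 ± 21.8 in HET, and Icam2 at 51.1 ± 9.32 against 50.9 ± 8.76. Cxcl12 held 1.33 ± 0.626 FPKM in FL and 1.48 ± 0.487 in HET, Fn1, fibronectin, 1.12 ± 0.668 and 2.02 ± 1.47, and Sele was below the filter at 0.340 ± 0.140 and 0.278 ± 0.131. The summed level of 6 marrow stroma markers was at most 3.42 FPKM in FL and 3.09 in HET. Icam1, the ligand of LFA-1, held 18.3 ± 4.27 and 16.4 ± 4.84, and Selp, P-selectin, which PSGL-1 binds, 28.5 ± 9.21 and 26.1 ± 9.69. Vcam1, the ligand of VLA-4, held 85.8, 96.7, 45.0, 75.7 and 76.8 FPKM in FL 1 to FL 5 and 94.2, 51.0, 22.8, 18.2 and 19.5 in HET 1 to HET 5, with a log2 fold change of -1.13 (SE 0.43, limma adjusted p = 0.472). It passed without FL 5 and HET 1, at -1.49 (adjusted p = 0.0164), but not with rescaled columns as well, at -1.10 (0.0627). HET 3 to HET 5 were the lowest, and HET 1 lay with the highest FL libraries. Marrow macrophages express Vcam1, and it is 1 of the 9 macrophage markers read here, all of which had a lower mean in HET. Their summed level ran from 229 to 425 FPKM in FL and from 90.1 to 444 in HET, the low end being HET 3 to HET 5, and none was at 0 in all libraries. Their part in the Vcam1 and Itga4 values was not tested.

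Proteases that cut niche proteins, 9 of 13 tested, had a median of 0.14, with 5 above 0 and 4 below. Mmp9, a gelatinase, held 0.474 ± 0.215 FPKM in FL and 1.56 ± 0.479 in HET (0.79, SE 0.17, limma adjusted p = 0.472). Its groups did not overlap, as for 0.506% of tested genes. With no FL library at 1 FPKM, Mmp9 met the filter only because all 5 HET libraries reached that level. Non-overlap was thus needed for it to be tested, and the share of 0.506% and the p-values of Mmp9 are conditional on that. At so low a level the size depends on the pseudocount, and with 0.1 in place of 1 its log2 fold change was 1.56. Mmp9 is also among the 9 neutrophil markers. Mmp14, a membrane protease, held 9.08 ± 4.01 and 3.44 ± 0.958 FPKM (-1.09, SE 0.32, adjusted p = 0.472). For Mmp14, FL 5 at 3.03 lay among the HET libraries, whereas HET 1 at 4.07 was the highest of its group but below FL 1 to FL 4. Both passed without FL 5 and HET 1, Mmp9 at 0.87 (adjusted p = 0.00406) and Mmp14 at -1.45 (0.000578). In that setting 3.44% of tested genes passed as higher and 42.2% as lower. For Mmp9 the call is conditional on the filter as well as on the libraries left out.

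**Figure D5:**
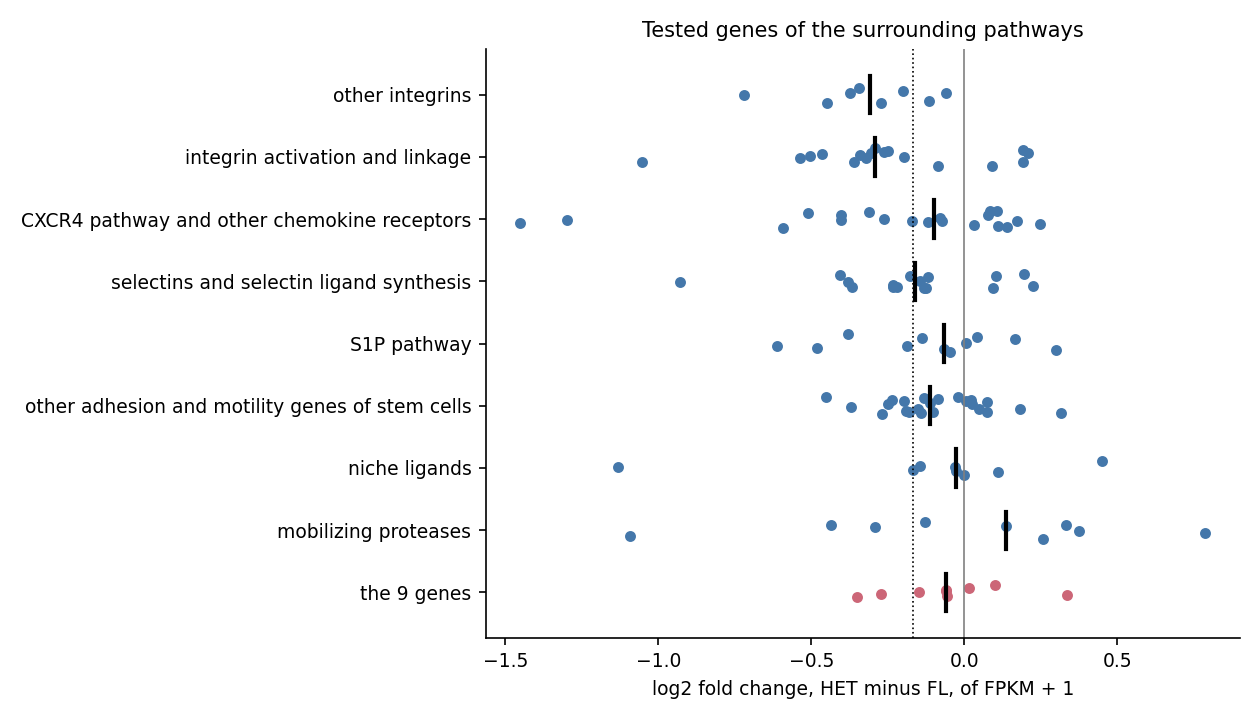
log2 fold change of FPKM + 1, HET minus FL, in the full set, of each tested gene of the 8 pathway lists (blue) and of the 9 genes (red), with the list median as a black bar and the median of all tested genes as a dotted line. List medians run from -0.31 for other integrins to 0.14 for mobilizing proteases, and no gene shown passed. Vertical scatter within a row has no meaning.

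The nearest pattern to each of the 9 was sought among protein-coding genes with a mean FPKM of at least 5, as the smallest mean absolute difference over the 10 libraries between log2(FPKM + 1) values centred on the mean of each gene. For Cd44 it was Cops2, a COP9 signalosome subunit gene, at 0.04, for Itga4 the cullin gene Cul5 at 0.05, and for Selplg Actr3, an actin nucleation gene, at 0.05. For Itgb1 it was Zfp808 at 0.06, for Itga6 Pstk at 0.06, for Itgb2 Ankrd16 at 0.06, for S1pr1 Zmym5 at 0.06, for Itgal Nudt16 at 0.07 and for Cxcr4 Trp53i13 at 0.09. The median such difference over the genes searched was 0.18 for Cd44, 0.24 for Itga4 and 0.44 for Selplg. Actr3 held 178 ± 41.8 FPKM in FL and 220.7 ± 16.7 in HET. No gene of the 8 pathway lists or of the 9 themselves was nearest to any of the 9. Each nearest gene was 1 of at least 7916 searched, of which those genes were a small part, so this says little of shared variation.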

How the data were processed

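Sorted marrow cells gave 10 RNA-seq libraries, 5 FL and 5 HET, amplified by Geo-seq and tagged by transposase, per the labels' protocols, which name no molecular identifiers. The deposited values are FPKM by Ensembl gene. Bowtie 0.12.9, Cufflinks 2.1.1, HTSeq, DESeq2 and mm10 are named without roles, per the submitters' processing notes. Read depth, strand use and treatment of shared reads are unknown here, so counting intervals were not computed. FPKM sums ran from 896054 to 1066190.

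Symbols and coordinates came from GENCODE M21 (GRCm38), which matched all 52096 identifiers. The comparison used limma 3.58.1 (R 4.3.3; trended, robust; genotype alone) on log2(FPKM + 1), which understates changes of low genes, and was tested on simulated data. Ratios were compared by exact permutation. No pair of libraries shared more than 0.767% of values. The members, lists and alternatives, and the choice to leave out FL 5 and HET 1 together, were made with earlier results of these data known. Genes named are the 9, Nup214, the 2 tested genes of smallest p in each pathway list, the nearest pattern to each member, Ackr3 and 6 ligands. Slamf1, Cd48, Kit and Ly6a are named as sort markers, Itga2b as a shared marker and Pf4 as the main part of a marker sum. S1pr4, Angpt1, Icam2, Gnai3 and Arrb1 were added after their values were seen. Plots used Python 3.11.15 and matplotlib 3.10.9. Upstream sequences are from RefSeq.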

Additional observations from a re-analysis of the deposited data

Results flagged for a closer look

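Among 26 groups of 5 values examined (9 members, Nup214 and 3 ratios, each in FL and HET), 6 held a library whose gap to its nearest neighbour took more than 0.71 of the range of the group, a gap that chance gives in about 1 of 20 groups. In HET 1, the highest HET library, these were Itga4 at 45.7 FPKM against 27.6 in the next library, Itgb2 at 29.4 against 19.5, Cd44 at 70.0 against 51.2 and S1pr1 at 3.35 against 1.55. In FL 5, Selplg was at 196 FPKM against 132 in the next FL library. The Itga4 to Itgb1 ratio was 1.02 in FL 3 against 0.871 in the next. Genes of the same library are not independent, so the 4 gaps in HET 1 are not separate observations.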

How the results depend on the processing

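Alternatives covered pseudocounts of 0.1 and 0.5 (ratios also with none), filters, scaling, shrinkage, protein-coding genes, sample quality weights, the replicate block and left-out libraries. Leaving out FL 5 and HET 1 together with rescaling was added after the data were seen. S1pr1 was below the filter of a mean FPKM of at least 5.

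Of all genes 0 passed in the full set, 1 with median-ratio scaling, 1 with quantile normalization, 6869 with quality weights, 5954 without FL 5 and HET 1, 3344 with rescaling as well, and from 0 to 409 with 1 library left out, 409 being without FL 5. Of the 9 members 4 passed with weights, 4 without FL 5 and HET 1, 2 with rescaling as well and from 0 to 1 with 1 library left out. Of the other listed genes 58, 41 and 33 passed in the same 3 settings, where 52.7%, 45.7% and 25.6% of all tested genes passed. With 1 library left out from 0 to 2 of them passed, 2 being without FL 5, where 3.14% of all tested genes passed.

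The signs of Itga6, Itgal, Itgb2 and Cd44 turned with median-ratio scaling (0.12, 0.12, 0.13 and 0.0502), quantile normalization (0.16, 0.15, 0.15 and 0.00889) and FL 5 and HET 1 left out with rescaling (0.24, 0.16, 0.14 and 0.0794). Cxcr4 turned to -0.32 with weights and to -0.17 without FL 5 and HET 1, where Itgb1 turned to -0.0132. With 1 library left out, Cxcr4 ran from -0.16 to 0.15, Itga6 from -0.11 to 0.0317, Itgal from -0.15 to 0.0418 and Itgb2 from -0.19 to 0.0260. The cause was not tested. In the full set the log2 fold change was 0.02 for Cxcr4 and -0.06 for each of Itga6, Itgal and Itgb2. It was 0.10 for Itgb1 and -0.15 for Cd44, beside -0.17 for the median of all tested genes.

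The replicate block, in which the number shared by an FL and a HET library is a term, called 0 genes and 0 members. Same-numbered libraries deviated together in 3 of 5 pairs (r from -0.17 to 0.23), so the numbers were not taken as pairs. The Itga4 to Itgb1 difference under this block was -0.4512 with p = 0.125, in an exact sign-flip test that cannot go below 0.0625, and it ran from -0.59 to -0.35 with 1 library left out. The Itgal to Itgb2 difference, -0.002 in the full set, was 0.0284 without FL 5 and HET 1 and ran from -0.0706 to 0.11 with 1 library left out. Depth per library is unknown, which limits what can be said of low genes such as S1pr1.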
